A study of Mus musculus with 15 samples.

Results

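Imprinted genes are expressed mainly from the copy inherited from one parent, and 10 of them were followed here in growing mouse oocytes: *Igf2r*, *Grb10*, *Peg3*, *Snrpn*, *Mest*, *Plagl1*, *Kcnq1ot1*, *H19*, *Meg3* and *Igf2*. They were taken by symbol from the 55401 gene identifiers of the count tables, with identifiers matched to symbols through the GENCODE vM21 annotation. All 10 were found once. After a filter on low counts 21009 genes remained, among them 9 of the 10, and *H19* was the one that did not pass.

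Imprints are DNA methylation marks at control regions that differ between egg and sperm. Marks of the maternal genome are erased in primordial germ cells and written anew in the oocyte while it grows, which is the period that follicle culture covers. In a growing oocyte both copies carry the maternal pattern in the making, so that a total RNA level in the oocyte does not read out allele-specific expression. Of the 10 genes, 7 lie at control regions that become methylated in the oocyte (*Igf2r*, *Grb10*, *Peg3*, *Snrpn*, *Mest*, *Plagl1*, *Kcnq1ot1*) and 3 in domains whose control region is methylated in sperm (*H19*, *Igf2*, *Meg3*). Methylation was not measured in these libraries.

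The oocytes came from Kunming mice, and each library was made from a pool of 6 oocytes amplified with SMART-Seq2, which primes on poly(A) tails and amplifies cDNA by PCR. The in vivo group (IVV) held oocytes of follicles that had grown in the ovary, taken at the germinal vesicle stage by puncture of antral follicles. The other oocytes came from preantral follicles of females aged 12 to 14 days, grown in vitro for 10 days (IVG_d10) or 6 days (IVG_d6), or for the same times with neurotrophin-4 (IVG-NT_d10 and IVG-NT_d6). Neurotrophin-4 (NT-4) is a growth factor that signals through the receptor TRKB. Each of the 5 groups had 3 libraries from replicated experiments, numbered 2, 3 and 4 in IVV and 1, 2 and 3 elsewhere. The methods name ovaries of mice of 2 and of 6 weeks without saying which of them gave the IVV oocytes, so age and culture cannot be told apart in comparisons with IVV.

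The 15 libraries held 5954262 to 55593251 counts and 10991 to 22966 genes with a count. Replicates 1 and 2 of IVG-NT_d6 stood apart, with 5954262 and 7125348 counts and Spearman correlations of 0.507 to 0.537 with each other and with replicate 3, so results that rest on that group are given with and without them. The share of counts on CT010467.1, an rRNA gene, was 12.5% to 37.9% in 9 libraries, called rRNA-rich (replicates 1 and 2 of all cultured groups and IVV replicate 3). It was 0.187% to 0.714% in the other 6, called rRNA-poor. All 12 oocyte markers, such as *Zp3* and *Gdf9*, had counts in every group. Levels are given as normalized CPM (counts scaled to library size after TMM), and levels of different genes are compared only per kilobase of exon.

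Maintenance of a methylated imprint involves ZFP57, a zinc finger protein that binds the hexamer TGCCGC when its CpG is methylated. Of the 10 genes, 9 had promoter windows in RefSeq (GRCm38.p6), 19 windows in all, and the 250 bases before each start were searched for TGCCGC on both strands (GCGGCA on the other strand). It was found in 4 of the 19 windows, which belong to 3 genes, *Mest*, *Plagl1* and *Meg3*, and 8.7% of the 32851 promoter windows of the same length hold it. The *Mest* windows that start at 30737800 and 30737803 overlap almost wholly, and both are in that count. The windows lie before annotated starts and need not be the imprint control regions. No match says only that these letters are absent from these windows. The 3 windows shown are free of annotated exons, with the hexamer in capitals: that of *Mest*, the member with the highest level, that of *Meg3*, the member whose IVV libraries lay above all others, and that of *Igf2r*, a window rich in CpG and without the hexamer. The *Mest* window (chr6:30737800-30738049, plus strand) held 14 CpG and 2 hexamers, the *Meg3* window (chr12:109540746-109540995, plus strand) 10 CpG and 1 hexamer, and the *Igf2r* window (chr17:12769707-12769956, minus strand) 27 CpG, against a median of 6 CpG over all windows.
Mest: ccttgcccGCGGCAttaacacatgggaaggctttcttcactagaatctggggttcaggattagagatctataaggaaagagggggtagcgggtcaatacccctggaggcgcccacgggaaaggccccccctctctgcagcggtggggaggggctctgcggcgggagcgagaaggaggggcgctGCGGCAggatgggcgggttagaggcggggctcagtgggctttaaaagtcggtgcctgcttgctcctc
Meg3: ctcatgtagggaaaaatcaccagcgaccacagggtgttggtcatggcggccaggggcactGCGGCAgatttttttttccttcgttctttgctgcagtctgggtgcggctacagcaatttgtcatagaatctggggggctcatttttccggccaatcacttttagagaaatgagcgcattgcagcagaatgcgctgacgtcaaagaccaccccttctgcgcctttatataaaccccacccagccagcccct
Igf2r: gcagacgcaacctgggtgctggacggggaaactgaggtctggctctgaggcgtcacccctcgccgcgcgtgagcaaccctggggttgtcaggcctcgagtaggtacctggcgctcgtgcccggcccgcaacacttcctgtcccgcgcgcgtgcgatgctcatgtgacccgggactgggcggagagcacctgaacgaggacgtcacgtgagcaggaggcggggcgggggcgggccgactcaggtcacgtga

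*Mest*, which encodes a hydrolase-like protein of mesoderm and the embryo, had the highest level of the 10. Its median over the 15 libraries was 60.1 normalized CPM per kb, above 97.0% of the genes tested, with 23.9 per kb in the lowest and 89.8 per kb in the highest library. *Snrpn*, which encodes a small nuclear ribonucleoprotein of splicing, followed with a median of 6.64 per kb, then the zinc finger gene *Plagl1* with 4.23 per kb. *Igf2r* (the receptor that clears IGF2 and sorts lysosomal enzymes), *Grb10* (an adaptor that restrains insulin and IGF signaling) and *Peg3* (a zinc finger gene) had nearly equal medians of 2.18, 2.06 and 2.03 per kb. The long noncoding RNA *Meg3* had 0.301 per kb and *Kcnq1ot1*, the long noncoding RNA that silences its neighbours on the paternal copy, 0.0569 per kb. *Igf2*, the fetal growth factor, had a median of 0.00710 per kb with counts in 8 libraries, and the noncoding RNA *H19* had counts in 5 libraries and a median of 0.

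**Figure D1:**
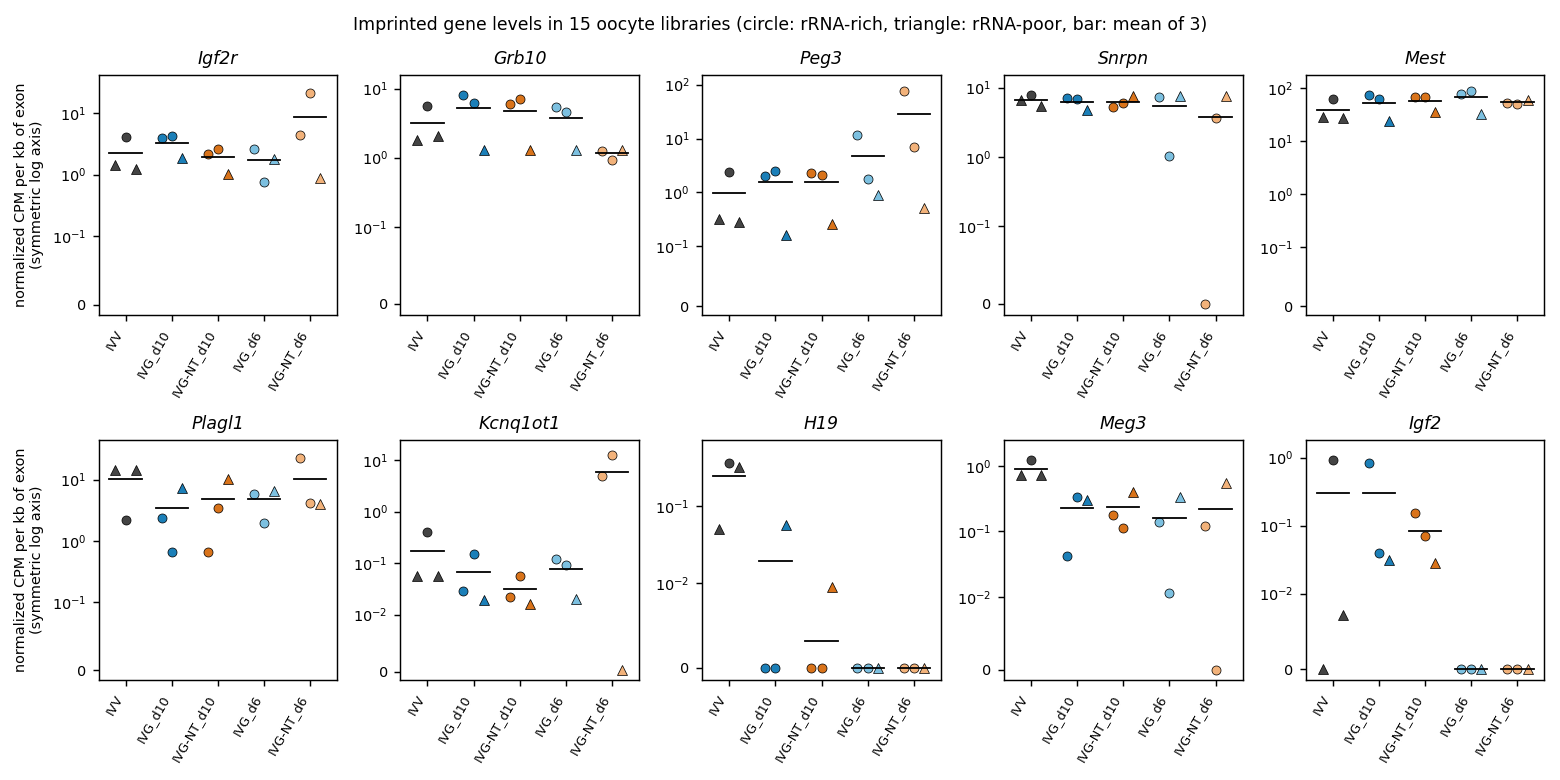
Normalized CPM per kb of exon (symmetric log axis) of the 10 imprinted genes in each of the 15 libraries by group. Circles are rRNA-rich and triangles rRNA-poor libraries, and bars are means of 3 libraries. All 3 IVV libraries of *Meg3* lie above the 12 in vitro libraries, *H19* and *Igf2* are at 0 in the 6 day 6 libraries, and *Kcnq1ot1* spans 0.00035 to 12.4 per kb within IVG-NT_d6.

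Set in order of their group means, the levels of a gene gave 40 pairs of neighbouring groups over the 10 genes, and in 3 of them the libraries did not overlap. These were IVV above IVG-NT_d10 for *Meg3*, IVV above IVG-NT_d6 for *Grb10*, and IVG-NT_d10 above IVG_d6 for *Igf2*. In the other pairs the libraries of the groups overlapped, or both groups were at 0. The share over all genes is not given for pairs ordered in this way. Between the fixed pairs of groups compared below, 3.59% to 11.9% of all genes tested did not overlap. Per kb, *Mest* was the highest of the 10 in 14 libraries and *Peg3* in the remaining 1, IVG-NT_d6 replicate 1.

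The first question was whether oocytes grown in vitro to day 10 differed from those grown in vivo. A gene was called at the threshold of the study, a log2 fold change beyond 1 with an unadjusted P under 0.05 (edgeR's quasi-likelihood test), and 2.76% of the genes tested were called for IVG_d10 and 3.29% for IVG-NT_d10 against IVV. None of the 9 members tested was called in either comparison, and 0 had an unadjusted P under 0.05 by edgeR; DESeq2's Wald test, which gave no P for *Igf2*, also gave 0. Of all genes, 0% had a Benjamini-Hochberg adjusted p under 0.05 by edgeR in these and in the 5 further comparisons, and the members' adjusted p against IVV was 1. DESeq2 passed 80 and 105 genes at that threshold for IVG_d10 and IVG-NT_d10 against IVV, none of them a member. The median log2 fold change of the 9 members was -0.01 for IVG_d10 and -0.24 for IVG-NT_d10, and that of all genes tested was -0.20 and -0.19. With DESeq2's size factors in place of TMM the medians of all genes were -0.39 and -0.36.

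*Meg3* was the member that separated IVV from the cultured oocytes. Its normalized CPM was 13.2, 22.5 and 13.1 in IVV, 0.758, 5.99 and 5.44 in IVG_d10, and 3.24, 2.06 and 7.25 in IVG-NT_d10. It was 2.52, 0.206 and 6.05 in IVG_d6, and 2.17, 0 and 9.91 in IVG-NT_d6, so the lowest IVV library lay above the highest of the 12 in vitro libraries. The log2 fold change was -2.00 (SE 1.55, adjusted p = 1 by edgeR) for IVG_d10 and -1.96 (SE 1.55, adjusted p = 1) for IVG-NT_d10 against IVV. Neither was called in this fit. Fitted on only the groups compared, the values were -1.90 and -1.94, and both were called (unadjusted P = 0.046 and 0.021 by edgeR). *Meg3* was 1 member of 9 whose groups did not overlap in each comparison, where 11.9% of all genes tested did not overlap between IVG_d10 and IVV and 11.6% between IVG-NT_d10 and IVV. Between rRNA-rich libraries alone, where IVV has 1 library, the values were -2.71 and -3.05, and neither was called. Between rRNA-poor libraries alone, a setting added after the data had been seen, they were -1.25 and -0.83; each day 10 group has 1 such library and IVV 2, so these and the rRNA-poor values that follow are given with no test.

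*H19* had counts in all 3 IVV libraries (6, 15 and 39 counts, or 0.126, 0.910 and 0.793 normalized CPM). In IVG_d10 it had 8 counts in replicate 3 and 0 in the others, and in IVG-NT_d10 1 count in replicate 3 and 0 in the others. All 6 libraries of day 6 had 0 counts, which, at 3 counts over a group, allows up to 0.0261 normalized CPM in IVG_d6 and 0.0413 in IVG-NT_d6. The groups did not overlap between IVV and IVG-NT_d10, while with IVG_d10 the 0.141 normalized CPM of its replicate 3 lay above the lowest IVV library. With so few counts *H19* did not enter the edgeR fit, and DESeq2, fitted without the filter, gave log2 fold changes of -3.69 and -6.07 against IVV (adjusted p = 1 each). Intervals and floors cover counting error only, since PCR copies carry no molecular identifier.

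*Kcnq1ot1* was 5.30, 37.2 and 5.20 normalized CPM in IVV, 2.70, 14.2 and 1.83 in IVG_d10 and 2.09, 5.31 and 1.47 in IVG-NT_d10. The groups overlapped, while within each kind of library the IVV values were the higher ones: 37.2 against 2.09 to 14.2 in rRNA-rich and 5.20 to 5.30 against 1.47 to 1.83 in rRNA-poor libraries. Its log2 fold change was -1.35 (SE 1.57, adjusted p = 1 by edgeR) for IVG_d10 and -2.42 (SE 1.63, adjusted p = 1) for IVG-NT_d10. Between rRNA-poor libraries alone it was -1.49 and -1.80, and between rRNA-rich libraries alone -2.11, not called, and -3.30, called with IVV as 1 library. Without IVV replicate 3 the values were 0.20 and -0.90.

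*Plagl1* followed the kind of library in the other direction. It was 113, 17.3 and 114 normalized CPM in IVV, 18.3, 5.19 and 56.5 in IVG_d10 and 5.24, 26.8 and 79.1 in IVG-NT_d10, and in each of these groups the rRNA-poor libraries were the higher ones. Its log2 fold change was -1.61 (SE 1.12, adjusted p = 1 by edgeR) for IVG_d10 and -1.14 (SE 1.10, adjusted p = 1) for IVG-NT_d10. Between rRNA-poor libraries alone these were -0.98 and -0.48, and between rRNA-rich libraries alone -0.54 and -0.086.

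The remaining members differed from IVV by less than their spread. *Mest* was 114, 242 and 109 normalized CPM in IVV and 94.3 to 290 in the 6 libraries of day 10, with log2 fold changes of 0.44 (SE 0.63) and 0.55 (SE 0.63). *Grb10* ranged over 16.1 to 50.3 in IVV and 11.6 to 72.4 at day 10 (log2 fold changes 0.73 and 0.60), *Peg3* over 3.74 to 31.3 and 2.15 to 33.4 (0.67 and 0.66), *Igf2r* over 11.5 to 38.5 and 9.52 to 39.0 (0.55 and -0.24). *Grb10* and *Peg3* turned negative between rRNA-poor libraries alone, at -0.54 and -0.56 for *Grb10* and -0.88 and -0.21 for *Peg3*. There *Mest* turned to -0.21 for IVG_d10, and *Snrpn* to 0.36 for IVG-NT_d10. *Snrpn* had 11.7 to 16.7 in IVV and 10.2 to 16.3 at day 10 and log2 fold changes of -0.08 and -0.07 (SE 1.27 each). *Igf2* was 0, 5.21 and 0.0407 in IVV, so that 1 library set its mean, and its log2 fold changes were -0.01 (SE 2.27) and -1.84 (SE 2.34), which turned to 6.13 and 4.29 without it.

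The second question was whether NT-4 changed these genes at day 10. Of the genes tested, 1.24% were called between IVG-NT_d10 and IVG_d10, and none of the 9 members was; 0 had an unadjusted P under 0.05 by edgeR, and 0 by DESeq2, which gave no P for *Igf2*. The libraries of the groups overlapped for all 10 members, against 3.59% of all genes tested that did not overlap. Libraries with the same number deviated together in these groups, and in all 3 such pairs *Igf2r* was lower with NT-4 (20.3, 24.0 and 9.52 normalized CPM against 36.3, 39.0 and 17.4), as was *Kcnq1ot1*, beside 21.0% of all genes tested that moved the same way in all 3. With the replicate number as a block neither was called (-0.81 and -0.67). The log2 fold changes were within 0.13 of 0 for *Peg3* (-0.01), *Snrpn* (0.02), *Meg3* (0.04), *Mest* (0.11) and *Grb10* (-0.13), with standard errors from 0.63 (*Mest*) to 1.50 (*Meg3*). The value was -0.78 (SE 0.99) for *Igf2r*, -1.08 (SE 1.56) for *Kcnq1ot1*, 0.48 (SE 1.09) for *Plagl1* and -1.83 (SE 2.33) for *Igf2*, all by edgeR with an adjusted p of 1. An adjusted p of 1 does not show that the groups were alike.

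**Figure D2:**
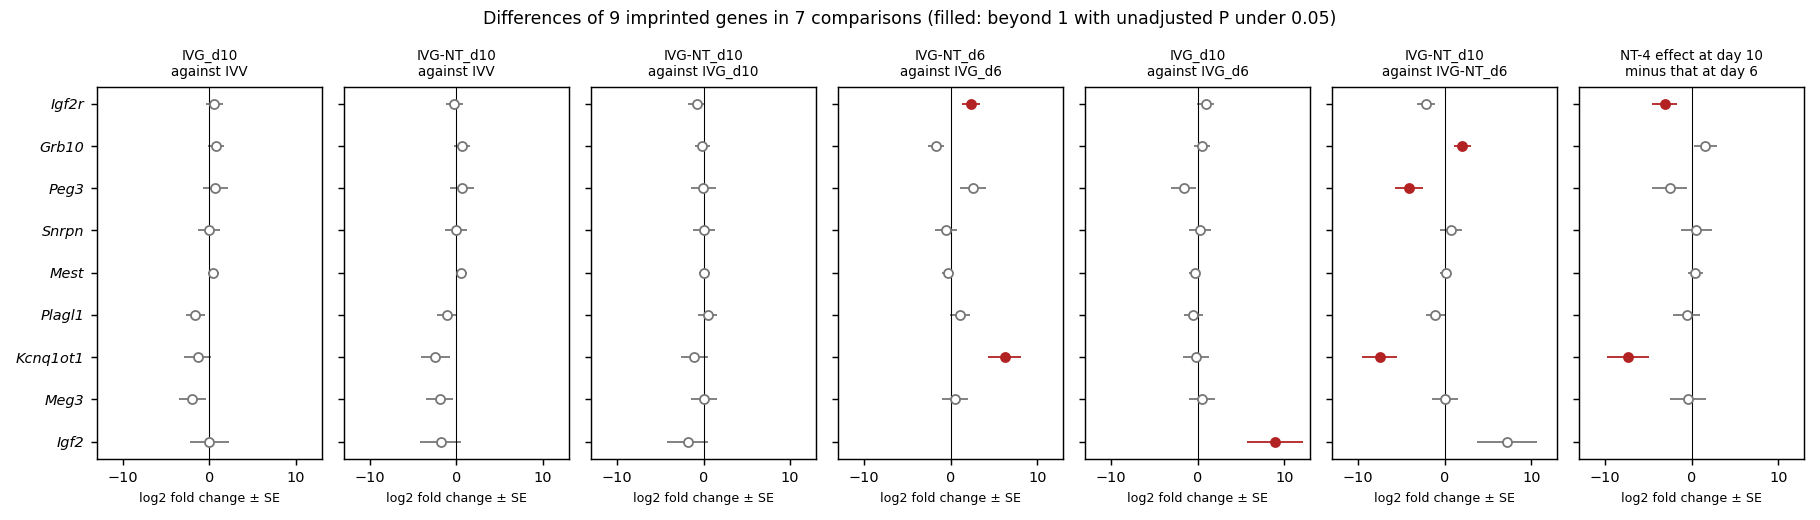
Log2 fold change with its standard error of 9 members in the 7 comparisons (edgeR, all 15 libraries); filled red points lie beyond 1 with an unadjusted P under 0.05. The called genes are *Igf2r* and *Kcnq1ot1* at day 6, *Igf2* between IVG_d10 and IVG_d6, *Grb10*, *Peg3* and *Kcnq1ot1* between IVG-NT_d10 and IVG-NT_d6, and *Igf2r* and *Kcnq1ot1* in the difference of the NT-4 effects. *Igf2* has no point where both day 6 groups were at 0.

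At day 6, 11.6% of all genes tested were called between IVG-NT_d6 and IVG_d6, and of the 9 members *Kcnq1ot1* and *Igf2r* were called higher. *Kcnq1ot1* was 464, 1156 and 0.0326 normalized CPM in IVG-NT_d6 (2569, 6643 and 2 counts) and 11.1, 8.50 and 1.84 in IVG_d6. The group with NT-4 thus held both the highest and the lowest values of the gene in the whole series, and the groups overlapped. The log2 fold change was 6.24 (SE 1.93, adjusted p = 0.381 by edgeR), and DESeq2 gave 6.79 with an adjusted p of 0.00214. *Igf2r* was 40.3, 195 and 8.15 in IVG-NT_d6 and 24.6, 7.16 and 16.5 in IVG_d6, with a log2 fold change of 2.34 (SE 1.04, adjusted p = 0.410 by edgeR). With the replicate number as a block the *Igf2r* value was 1.59, short of the threshold.

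Both calls changed without the 2 small libraries. Without replicates 1 and 2 of IVG-NT_d6, which leaves 1 library taken to vary like those of the other groups, *Kcnq1ot1* turned to -7.55, past the threshold in the other direction, and *Igf2r* to -0.90, short of it. Without replicate 2 alone *Igf2r* was 0.59 and *Kcnq1ot1* 5.04. *Igf2r* also lost its call without IVG_d6 replicate 2 (1.97) or 3 (2.35), and *Kcnq1ot1* was called without any 1 of the 6 libraries. *Peg3* was 1024, 92.1 and 6.96 in IVG-NT_d6 and 157, 23.3 and 11.8 in IVG_d6, a log2 fold change of 2.55 (SE 1.50) that went to -0.35 without replicate 1 and to -3.09 without both. Without IVG_d6 replicate 1 it was 4.40, and without IVG-NT_d6 replicate 3 it was 3.12, past the threshold. *Grb10* was 11.4, 8.53 and 11.7 against 49.4, 41.4 and 11.6, a log2 fold change of -1.69 (SE 0.94) that kept its sign in each of these settings. Between rRNA-rich libraries alone, 2 per group, it was -2.27, past the threshold. There the IVG-NT_d6 libraries are the 2 small ones.

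The other members showed no call at day 6. *Snrpn* had 0 counts in IVG-NT_d6 replicate 1 and 8.01 and 16.3 normalized CPM in the others, against 16.0, 2.21 and 16.6 in IVG_d6 (log2 fold change -0.51, SE 1.28). *Mest* was 206, 196 and 237 against 310, 354 and 126 (-0.31, SE 0.63), and *Plagl1* was 174, 33.1 and 30.8 against 45.8, 15.3 and 51.7 (1.08, SE 1.10). *Meg3* was at 0.47 (SE 1.50), and *Igf2* and *H19* were at 0 in all 6 libraries. For the 7 members at oocyte-methylated control regions the median log2 fold change was 1.08 and for all genes -0.27, and without the 2 small libraries the median of the 7 turned to -0.90; 8.45% of all genes had groups that did not overlap, and none of the 10 members did.

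**Figure D3:**
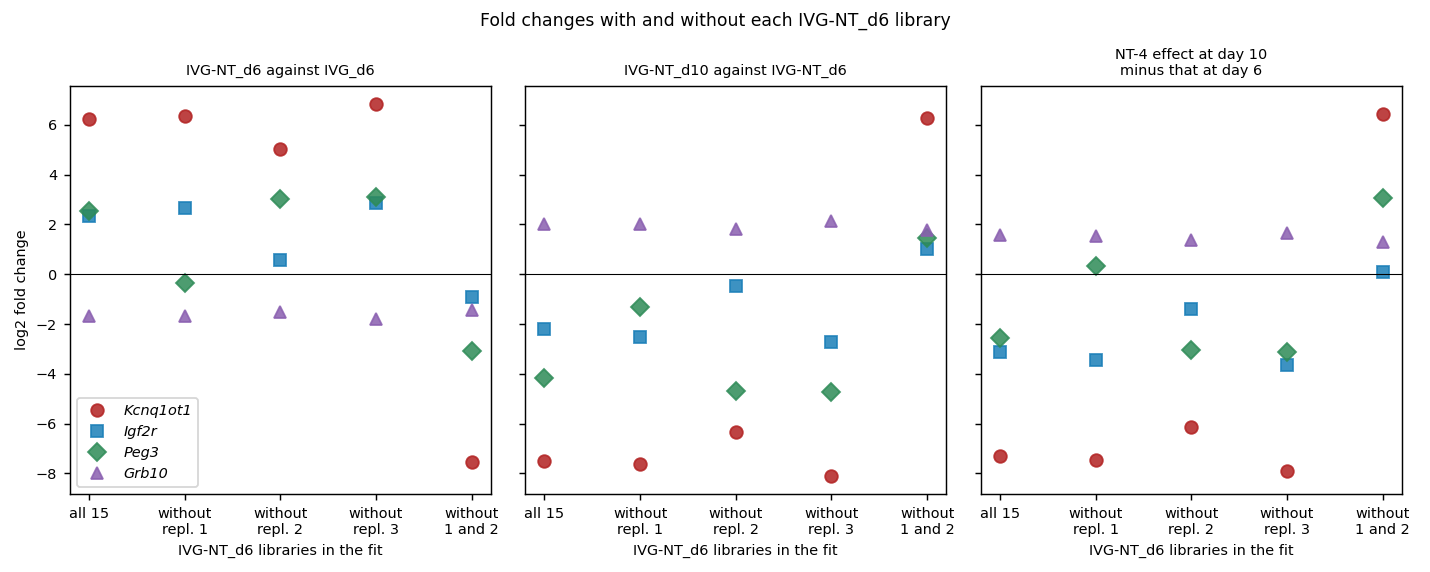
Log2 fold change (edgeR) of *Kcnq1ot1*, *Igf2r*, *Peg3* and *Grb10* in the 3 comparisons that use IVG-NT_d6, with all libraries, without each of its 3 replicates in turn and without replicates 1 and 2. *Kcnq1ot1* goes from 6.24 to -7.55 at day 6 when both are left out, and *Grb10* keeps its sign throughout.

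Between day 6 and day 10 without NT-4, 2.9% of all genes tested were called, and *Igf2* was the 1 member called. It had 0 counts in all 3 IVG_d6 libraries and 171, 10 and 10 counts (4.80, 0.227 and 0.176 normalized CPM) in IVG_d10. Against 3 counts over the day 6 group, which is 0.0261 normalized CPM, it was at least 66.6-fold higher at day 10 (called, with an adjusted p = 1 by edgeR), and at least 7.73-fold without replicate 1, which ended the call. Its groups did not overlap, as for 7.42% of all genes tested. *Gm49394*, a gene model on the same strand, shares 62.8% of the exon bases of *Igf2*, so the counts of *Igf2* depend on how shared reads were assigned.

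The other 8 members tested were not called between IVG_d10 and IVG_d6. *Peg3* was 27.1, 33.4 and 2.15 normalized CPM at day 10 and 157, 23.3 and 11.8 at day 6, a log2 fold change of -1.61 (SE 1.45) that turned to 0.25 without IVG_d6 replicate 1. *Igf2r* was at 0.94 (SE 0.998), *Meg3* at 0.47 (SE 1.50), *Grb10* at 0.46 (SE 0.91) and *Snrpn* at 0.21 (SE 1.27), while *Kcnq1ot1* (-0.19), *Mest* (-0.33) and *Plagl1* (-0.49) were below 0. The median of the 9 members was 0.21, and that of all genes 0.05.

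With NT-4, 12.7% of all genes tested were called between IVG-NT_d10 and IVG-NT_d6, and 3 of the 9 members were. *Kcnq1ot1* was called lower at day 10 (-7.51, SE 2.05, adjusted p = 0.357 by edgeR), and so was *Peg3* (-4.18, SE 1.61, adjusted p = 0.357). *Grb10* was called higher (2.03, SE 0.95, adjusted p = 0.393), with 54.3, 63.5 and 11.6 normalized CPM at day 10 and 11.4, 8.53 and 11.7 at day 6. DESeq2 gave adjusted p values of 8.08e-05 for *Kcnq1ot1* and 0.0304 for *Peg3*. Without replicates 1 and 2 of IVG-NT_d6 *Kcnq1ot1* turned to 6.27 and *Peg3* to 1.45, and *Grb10* lost its call at 1.76. *Peg3* lost its call without IVG-NT_d6 replicate 1 (-1.30) or IVG-NT_d10 replicate 3 (-3.66). *Grb10* lost its call without any 1 of the 6 libraries other than IVG-NT_d10 replicate 3, and also with the replicate number as a block, at 1.49.

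*Igf2* had 0 counts in all 3 IVG-NT_d6 libraries and 30, 12 and 7 counts at day 10 with NT-4 (0.883, 0.406 and 0.164 normalized CPM). Against 3 counts over the day 6 group it was at least 11.7-fold higher without being called (adjusted p = 0.410 by edgeR), and at least 6.90-fold without replicate 1. With the replicate number as a block it passed the threshold. It was the 1 member of 10 whose groups did not overlap, against 11% of all genes tested, and it was detected in all 6 libraries of day 10 and in none of the 6 of day 6. *Igf2r* was not called at -2.18 (SE 1.03), nor at -0.46 without IVG-NT_d6 replicate 2. It was called without IVG-NT_d6 replicate 1 (-2.53) or 3 (-2.71) and by DESeq2 (-2.75), and it turned to 1.03, not called, without both small libraries. *Mest*, *Snrpn*, *Meg3* and *Plagl1* lay between -1.10 and 0.74.

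The effect of NT-4 at day 10 was then set against its effect at day 6 in the same fit, where 6.37% of all genes tested were called. *Kcnq1ot1* (-7.32, SE 2.42, adjusted p = 0.664 by edgeR) and *Igf2r* (-3.12, SE 1.43, adjusted p = 0.767) were the members called. Without replicates 1 and 2 of IVG-NT_d6 they turned to 6.45, called, and 0.094, not called. *Igf2r* lost its call without any 1 of 8 of the 12 libraries and was -1.40 without IVG-NT_d6 replicate 2, while *Kcnq1ot1* was called without any 1 of the 12. With the replicate number as a block *Kcnq1ot1* was -6.15 and *Igf2r* -2.40, short of the threshold. *Peg3* was at -2.57 (SE 2.03), *Grb10* at 1.57 (SE 1.30), and *Mest*, *Snrpn*, *Plagl1* and *Meg3* within 1 of 0. *Igf2* has no value from edgeR here, since both day 6 groups were at 0.

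The kind of library moved with several members. *Peg3* was higher in each of the 9 rRNA-rich libraries (1.75 to 76.9 normalized CPM per kb) than in the 6 rRNA-poor ones (0.161 to 0.882 per kb), and it was the member for which the kinds did not overlap. The share of all genes tested whose kinds did not overlap is not given here. The separation therefore cannot be read as particular to *Peg3*. *Grb10* had a median of 5.53 per kb in rRNA-rich and 1.29 in rRNA-poor libraries, and *Mest* 67.5 and 30.4. *Plagl1* (2.34 and 8.67) and *Meg3* (0.120 and 0.474) had the higher median in rRNA-poor libraries, and *Snrpn* had similar ones (6.08 and 7.09). In culture the kind went with the replicate number. In IVV 1 of 3 libraries was rRNA-rich, against 2 of 3 elsewhere. Values within rRNA-poor libraries are given above for *Meg3*, *Kcnq1ot1*, *Plagl1*, *Grb10* and *Peg3*, and for *Mest* and *Snrpn* in 1 comparison each. For the other members the part of the kind in the differences from IVV is not shown.

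Markers of other ovarian cells were set beside *H19*, *Meg3* and *Igf2*. The summed normalized CPM of 9 theca and stroma markers, among them *Col1a1* and *Pdgfra*, was 12.7 to 29.7 in IVV, 0.562 to 33.3 in IVG_d10, 1.15 to 2.33 in IVG-NT_d10, 0 to 2.88 in IVG_d6 and 0 to 3.25 in IVG-NT_d6. In IVG_d10 the high value was that of replicate 3, the library with *H19* counts. *Lum* and *Tcf21* were at 0 in IVG-NT_d10 and in both groups of day 6. The 11 granulosa cell markers summed to 193 to 252 in IVV, 103 to 402 and 133 to 314 in IVG_d10 and IVG-NT_d10, and 54.0 to 153 and 49.2 to 161 in IVG_d6 and IVG-NT_d6, where *Amh*, a hormone of granulosa cells, was at 0 in the 3 groups IVG_d10, IVG-NT_d10 and IVG-NT_d6. The 7 macrophage markers summed to 16.9 to 65.4 in IVV, 5.24 to 50.1 at day 10, 20.3 to 64.6 in IVG_d6 and 0 to 59.6 in IVG-NT_d6. The highest sums of day 6 came near that of IVV but rested on fewer markers. All 7 had counts in IVV, 6 in IVG_d10, 5 in IVG-NT_d10, 3 in IVG_d6 and 5 in IVG-NT_d6. *Ptprc* and *C1qa* were at 0 in both groups of day 6, and *Adgre1* and *Lyz2* also in IVG_d6. The 6 endothelium and blood markers summed to 22.2 to 30.4 in IVV, 35.4 to 60.3 at day 10, 25.6 to 52.5 in IVG_d6 and 4.52 to 19.9 in IVG-NT_d6. The 12 oocyte markers summed to 11790 to 25950. The part of other cells in the levels of *H19*, *Meg3* and *Igf2* was not tested, and in a pool fewer cells of a type and less RNA per cell cannot be told apart.

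Gene models that overlap the members limit some levels, because strand was not stated for these libraries. *Copg2* shares 23.1% of the exon bases of *Mest* on the opposite strand, and *Gm38393* and *Snurf* share 27.3% and 10% of those of *Snrpn* on the same strand. *Kcnq1ot1* is annotated as 1 exon of 93092 bases inside *Kcnq1*, which is transcribed from the opposite strand, so unspliced *Kcnq1* RNA could not be told apart from *Kcnq1ot1*. *Kcnq1*, a potassium channel gene, was 65.0, 5.22 and 12.8 normalized CPM in IVG-NT_d6, and was highest in another library than *Kcnq1ot1*. The exons of *Kcnq1* share only 121 bases with *Kcnq1ot1*, so these values do not show how much unspliced *Kcnq1* RNA there was. Its part in the *Kcnq1ot1* counts was not tested.

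The wider family was covered by 49 other imprinted genes, of which 46 were tested. The highest by mean level per kb were *H13*, *Commd1*, *Phlda2*, *Mcts2* and *Kcnq1*. *Mcts2* was among them through IVG-NT_d6 replicate 1, with 123 normalized CPM there and 0 to 5.17 in the other 14 libraries, and *H13*, the gene of a signal peptide peptidase, had 101 to 365 normalized CPM over all libraries. Against IVV, 1 of 46 was called for IVG_d10 (lower) and 2 of 46 for IVG-NT_d10 (both lower), beside the 2.76% and 3.29% of all genes. These were *Rasgrf1*, at 0 in all 3 IVG_d10 libraries and 6 to 26 counts in IVV, and *Kcnk9* and *Jade1*, at 0 in all 3 IVG-NT_d10 libraries and 17 to 32 and 5 to 91 counts in IVV. Between IVG-NT_d10 and IVG_d10, 1 of 46 was called, *Jade1* (lower), beside 1.24% of all genes. The *Jade1* call was lost without IVG_d10 replicate 3 or any 1 of the 3 IVG-NT_d10 libraries, and that of *Rasgrf1* without IVV replicate 2 or 3 or IVG_d10 replicate 2, each leaving 0 of the 46 called. The medians of the 46 were 0.01 and -0.85 against IVV, beside -0.20 and -0.19 for all genes. Without overlap, 2 were higher and 2 lower for IVG_d10, and 2 higher and 7 lower for IVG-NT_d10, beside the 11.9% and 11.6% of all genes.

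More of the other imprinted genes were called between the culture days. Without NT-4, 8 of 46 were called higher at day 10 and 1 lower, and with NT-4, 9 were called higher and 6 lower, beside the 2.9% and 12.7% of all genes. *Nap1l5*, a nucleosome assembly protein gene at an oocyte-methylated control region, was 3.73, 38.6 and 22.8 normalized CPM in IVG_d10 and 1.08, 3.24 and 0.544 in IVG_d6, a log2 fold change of 3.75 (SE 1.52, adjusted p = 1 by edgeR). It was 11.7, 17.3 and 10.3 in IVG-NT_d10 and 0, 2.44 and 0.0652 in IVG-NT_d6 (4.02, SE 1.56, adjusted p = 0.357), so that its libraries of day 10 lay above those of day 6 in both comparisons. *Gab1*, an adaptor of growth factor receptors, did so as well, with 0.616 to 4.24 and 1.005 to 7.33 at day 10 and 0 to 0.383 at day 6. *Cd81*, *Slc22a2* and *Sfmbt2* had 0 counts in all IVG_d6 libraries and counts in all 3 of IVG_d10, and *Zrsr1* had 6 counts in 1 IVG_d6 library and 146 to 184 at day 10. *Osbpl5*, *Ddc* and *Smoc1* had 0 counts in all IVG-NT_d6 libraries and counts in all of IVG-NT_d10. *Usp29*, the neighbour of *Peg3*, was called higher at day 10 with NT-4 (2.28, SE 0.97, adjusted p = 0.366). Without replicates 1 and 2 of IVG-NT_d6, which leaves 1 library in that group, *Nap1l5* (7.48) kept its call with NT-4 and *Usp29* (1.05) lost it.

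At day 6, 7 of the 46 were called higher with NT-4 and 3 lower, beside the 11.6% of all genes. *Peg10*, a retrotransposon-derived placental gene, had 8 counts in 1 IVG-NT_d6 library and 37 to 440 in each IVG_d6 library, and it was called lower (-6.49, SE 2.46, adjusted p = 0.381 by edgeR). It was higher at day 10 than at day 6 with NT-4 (6.04, SE 2.41, adjusted p = 0.357). Without the 2 small libraries, which detected fewer genes than any other, *Peg10* lost both calls (-5.45 and 4.98).

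**Figure D4:**
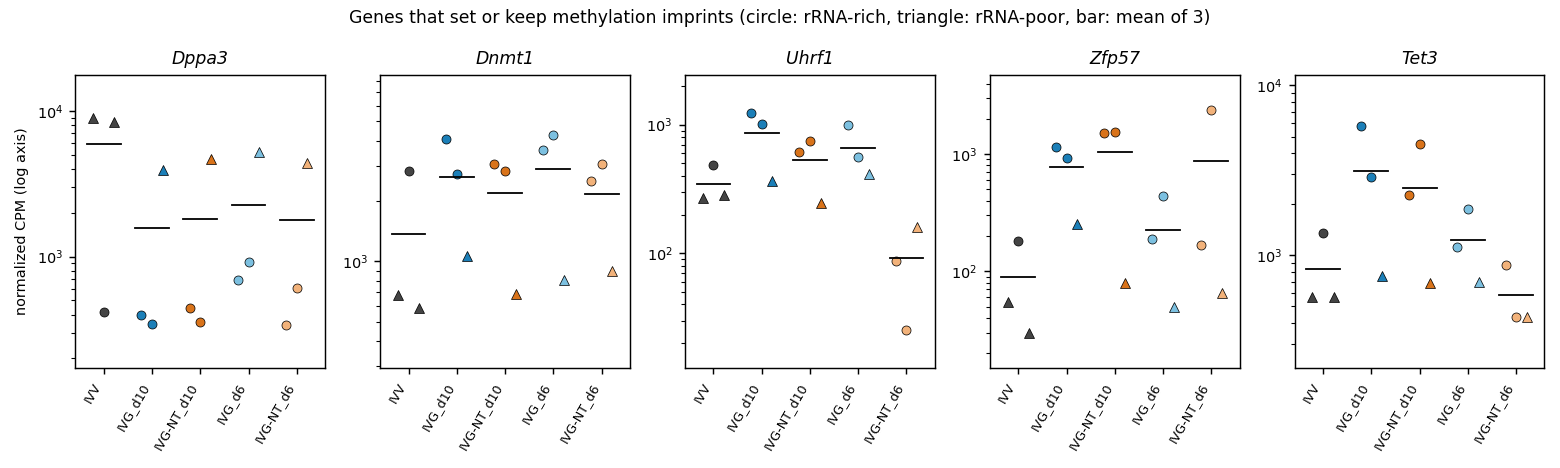
Normalized CPM (log axis) of *Dppa3*, *Dnmt1*, *Uhrf1*, *Zfp57* and *Tet3* in the 15 libraries by group, with circles for rRNA-rich and triangles for rRNA-poor libraries and bars for means of 3. The 3 IVG-NT_d6 libraries of *Uhrf1* (25.4 to 161) lie below those of IVG_d6, and the IVG_d10 libraries of *Zfp57* lie above those of IVV.

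Among 17 genes that write, protect or erase methylation imprints, the highest per kb were *Dppa3*, *Dnmt1*, *Zfp57*, *Uhrf1* and *Tet3*. *Zfp57*, the gene of the hexamer-binding protein, was 55.2, 181 and 29.6 normalized CPM in IVV, 1160, 925 and 254 in IVG_d10 and 1521, 1541 and 80.2 in IVG-NT_d10. In each of these groups the rRNA-rich libraries were the higher ones, and the rRNA-poor ones of day 10 were at 254 and 80.2. The IVG_d10 libraries lay above IVV without overlap, with a log2 fold change of 3.14 (SE 1.30, adjusted p = 1 by edgeR). Of the 17 genes, 2 lay above IVV without overlap in IVG_d10, beside the 11.9% of all genes tested that did not overlap. For IVG-NT_d10 the *Zfp57* value was 3.56 (SE 1.33, adjusted p = 1), with 1 library inside the IVV range. *Tet3*, which oxidizes methylated cytosine in the zygote, was 564, 1350 and 570 in IVV and 5800, 2905 and 756 in IVG_d10, and was called higher there (1.93, SE 0.78, adjusted p = 1 by edgeR). The groups overlapped, and the highest *Tet3* values of both were in rRNA-rich libraries, with 756 against 564 and 570 in the rRNA-poor ones. In all, 2 of 17 were called higher for IVG_d10 and 1 of 17 for IVG-NT_d10, and none lower, beside the 2.76% and 3.29% of all genes.

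*Uhrf1*, which guides the maintenance methyltransferase DNMT1 to newly copied DNA, was 87.3, 25.4 and 161 normalized CPM in IVG-NT_d6 and 988, 563 and 412 in IVG_d6. It was called lower with NT-4 at day 6 (-2.84, SE 0.76, adjusted p = 0.381 by edgeR), and higher at day 10 than at day 6 with NT-4 (2.54, SE 0.75, adjusted p = 0.357). In both comparisons the libraries did not overlap, as for 8.45% and 11% of all genes tested. Without the 2 small libraries of IVG-NT_d6 the *Uhrf1* values were -1.93 and 1.61, and neither was called. *Dppa3*, which shields maternal marks in the zygote, was 8877 and 8392 in the rRNA-poor IVV libraries and 414 in the rRNA-rich one, and in each in vitro group the rRNA-poor library was likewise the highest, at 3945 to 5209. *Dnmt1* ran the other way, at 681 and 584 in the rRNA-poor and 2828 in the rRNA-rich IVV library.

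The genes whose pattern was most like that of a member over the 15 libraries were named by Pearson's r of log2(normalized CPM + 1). The values are a description only. The 15 libraries differed in kind and depth, and the part of these differences in r was not tested. For *Grb10* they were *Nup98* (r = 0.981), *Togaram1* (0.973) and *Tjp1* (0.973), for *Snrpn* *Lars* (0.966), *Eif2a* (0.951) and *Clcn3* (0.935), and for *Kcnq1ot1* the pseudogenes *Pisd-ps1* (0.962) and *2610005L07Rik* (0.954) and the mitochondrial tRNA *mt-Td* (0.951). *Peg3* was most like *Dnah7a* (0.943), *Wdfy4* (0.942) and *Dnah9* (0.933), *Mest* like *Nlrp4f* (0.933), *Rbm38* (0.921) and *Tmem108* (0.913), and *Meg3* like *Ahnak* (0.926), *Tbc1d22a* (0.909) and *Rgs19* (0.907). *Igf2r* was most like *Gpr158* (0.915), *Atxn7l1* (0.915) and *Crtc3* (0.912), and *Plagl1* like *Gm8942* (0.863), *2310009A05Rik* (0.848) and *Cbx3-ps7* (0.847). Among the members the highest r were 0.795 for *Igf2r* and *Kcnq1ot1* and 0.738 for *Peg3* and *Kcnq1ot1*, genes whose highest library was 1 of the small IVG-NT_d6 libraries, and 0.693 for *Grb10* and *Mest*; the lowest was -0.69 for *Grb10* and *Plagl1*.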

How the data were processed

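RNA of 15 pools of 6 oocytes was sequenced after SMART-Seq2 amplification. After trimming of adaptors and bases of low quality, the authors mapped reads to mm10 by HISAT2 and deposited raw counts per Ensembl gene for each library. The submitters' processing notes name FastQC, HISAT2 and edgeR; how the counts were taken, the annotation release and the strand setting are not given in the sources used here. Of 55401 identifiers, 99.5% had a symbol in GENCODE vM21.

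Groups were taken from the labels. Counts were fitted in R 4.3.3 with edgeR 4.0.16 (quasi-likelihood F test, TMM scaling, filterByExpr with a minimum count of 10) in 1 model of group means over all 15 libraries, which left 21009 genes. A call is a log2 fold change beyond 1 with an unadjusted P under 0.05, and Benjamini-Hochberg adjusted p values are over all genes tested. The script was tested on simulated data. Normalized CPM are counts over the TMM-scaled library size. DESeq2 1.42.0, other size factors, no filter, only the groups compared, the replicate number as a block, the kind of library and leaving out single libraries were tried as alternatives. A depth of 5954262 to 55593251 counts per library sets the precision, and PCR duplicates could not be removed. P values measure the spread between these libraries.

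The members and lists were chosen with earlier results of these data known. Named were all 10 members, the 5 highest genes of the lists of other imprinted genes and imprint factors, and those of their genes called with groups that did not overlap. *Jade1* between IVG-NT_d10 and IVG_d10, *Tet3* as a called gene and the call of *Zfp57* in IVG-NT_d10 are given with overlapping groups. Same-numbered libraries deviated together in each pair (correlation over 0.1) between IVG_d10 and IVG-NT_d10 (0.61 to 0.872), IVG_d10 and IVG_d6 (0.289 to 0.707) and IVG-NT_d6 and IVG_d6 (0.124 to 0.418). Between IVG-NT_d10 and IVG-NT_d6 1 pair fell just short of that limit, at 0.0993 beside 0.166 and 0.363. IVV shares 2 numbers with the other groups, with correlations of -0.711 to -0.138.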

Additional observations from a re-analysis of the deposited data

Results flagged for a closer look

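The effect of NT-4 differed between day 10 and day 6 for 2 of the members tested, by the interaction term in the fit over all libraries at an unadjusted P under 0.05. For *Kcnq1ot1* the log2 effect at day 10 minus that at day 6 was -7.32 (adjusted p = 0.664 by edgeR), from -1.08 at day 10 and 6.24 at day 6. For *Igf2r* it was -3.12 (adjusted p = 0.767 by edgeR), from -0.78 and 2.34. Neither passed adjustment over all genes, where 6.37% of genes were called. Without the 2 small IVG-NT_d6 libraries the values were 6.45 and 0.094.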

How the results depend on the processing

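Of 198 recomputed counts of called genes, 132 stayed within 1.5 times the reported count, and of 874 recomputed log2 fold changes of members 6 reversed with a call, 22 gained a call and 32 lost one. Changes of sign, with or without a call, numbered 115 over 9 members. Among them were 26 between IVG-NT_d10 and IVG_d10 and 19 for IVG_d10 against IVV. The 6 reversals with a call came without both small IVG-NT_d6 libraries, a setting added after seeing the data. Between IVG-NT_d6 and IVG_d6 *Kcnq1ot1* became -7.55 and *Igf2r* -0.90, between IVG-NT_d10 and IVG-NT_d6 *Kcnq1ot1* became 6.27 and *Peg3* 1.45, and for the difference of the NT-4 effects *Kcnq1ot1* became 6.45 and *Igf2r* 0.094. The cause was not tested. In that setting 1 member was called in each of the 3 comparisons, and 4 other imprinted genes between IVG-NT_d10 and IVG-NT_d6.

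The share of all genes called is not given for the settings of this section, so the counts show only how the calls moved. Calls against IVV within 1 kind of library are part of the totals above but are not listed below, since 1 group is then 1 library. In the rRNA-poor setting, also added after seeing the data, each in vitro group is 1 library and the spread comes from 2 IVV libraries. Members called for IVG_d10 against IVV were 1 with only the groups compared (*Meg3*). For IVG-NT_d10 against IVV they were 2 with only the groups compared (*Meg3* and *Kcnq1ot1*) and 1 each with no filter and the replicate block (*Kcnq1ot1*). Between IVG-NT_d6 and IVG_d6 1 was called with only the groups compared, the replicate block or the kind of library as a covariate. Between IVG_d10 and IVG_d6 0 were called with only the groups compared and 2 with the kind of library, and between IVG-NT_d10 and IVG-NT_d6 5 with the kind of library. For the difference of the NT-4 effects 1 was called with no filter, only the groups compared or the replicate block.

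Other imprinted genes called for IVG_d10 against IVV were 2 with no filter, 3 with only the groups compared and 2 with the kind of library. For IVG-NT_d10 against IVV they were 4, 5, 0 and 8 with no filter, only the groups compared, rRNA-rich and rRNA-poor libraries. Between IVG-NT_d10 and IVG_d10 they were 2 with the kind of library and 0 in rRNA-rich libraries, and between IVG-NT_d6 and IVG_d6 2 with only the groups compared and 6 in rRNA-rich libraries. Between IVG_d10 and IVG_d6 they were 5 with only the groups compared and 2 in rRNA-rich libraries, and between IVG-NT_d10 and IVG-NT_d6 4 with only the groups compared and 9 with the replicate block.

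Leaving out 1 library at a time, members called ranged, in the order of the comparisons in the report, over 0 to 1, 0 to 0, 0 to 0, 1 to 3, 0 to 1, 2 to 3 and 1 to 2, and other imprinted genes over 0 to 1, 2 to 3, 0 to 1, 5 to 16, 5 to 9, 7 to 20 and 5 to 12. The replicate block moved the members' calls given in the report and gave *Kcnq1ot1* -4.13, a call, for IVG-NT_d10 against IVV, where only 2 numbers are shared and same-numbered libraries did not deviate together; it changed no other member's call. DESeq2 gave no P for *Igf2*, so that no count of called members between IVG_d10 and IVG_d6 was taken from it, and likewise none of other imprinted genes in the 5 comparisons where a called gene had no P. DESeq2 passed 80, 105, 58, 786, 131, 838 and 182 of all genes at an adjusted p under 0.05, in the same order, where edgeR passed 0 in each. Its size factors moved the median log2 fold change of all genes from -0.27 to 0.00 between IVG-NT_d6 and IVG_d6 and from 0.40 to 0.04 between IVG-NT_d10 and IVG-NT_d6. Depth limits *H19*, *Igf2* and the small libraries.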

Other observations

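Some other imprinted genes had a high level in 1 of the small IVG-NT_d6 libraries and 0 counts in another, and were picked out after their values were seen. *Rtl1*, a retrotransposon-derived gene of the *Meg3* domain, had 888 normalized CPM (5102 counts) in replicate 2 and 0 counts in replicates 1 and 3, and 0.907 or less in the other 12 libraries. *Rasgrf1*, a gene of a domain with a sperm-methylated control region, had 295 normalized CPM (1697 counts) in the same library, 0 in replicate 1 and 0.261 in replicate 3. In replicate 1 *Mcts2* had 123 normalized CPM (682 counts) and *Sfmbt2* 97.8 (541 counts), and both had 0 counts in replicate 2. *Kcnk9* had 22.3 normalized CPM (128 counts) in replicate 2 and 0 in replicate 1. No test was made of these values.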
